A study of Mus musculus with 12 samples.

Results

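The 9 genes described here belong to the Notch pathway and were followed in differentiating mouse embryonic stem (ES) cells: the receptor Notch1, the ligands Dll1, Dll3 and Jag1, and the transcription factors Hes1, Hes5, Hes6, Hey1 and Hey2. They were taken as every probe set whose single gene symbol in the platform's annotation was one of these names, which gave 14 of 45037 probe sets and 9 of 18193 named genes. RNA was measured on 12 Affymetrix arrays, 2 in each of 6 groups. ES cells differentiated in a monolayer in N2B27, a serum-free medium in which they turn neural, and doxycycline (Dox) was given or withheld from day 5. The rtTA-Dmrt5 line carries rtTA, an activator that works only with Dox, and a tetracycline-inducible Dmrt5, another name of the transcription factor gene Dmrta2. Its 4 groups were day 7 +Dox, day 7 -Dox, day 9 +Dox and day 9 -Dox. The parental line, called rtTA, carries the activator without the added gene and gave the last 2 groups, day 7 +Dox and day 7 -Dox. It was measured at day 7 only, so the day 9 Dox response has no parental counterpart here. No source used here says whether the inducible line is a single clone or whether the replicates were separate cultures. The p-values therefore measure only the spread between these samples, which may be technical.

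Notch signalling passes between touching cells. A ligand on one cell (Dll1 or Jag1) binds a Notch receptor on its neighbour, the receptor's inner part is cut free by γ-secretase, and together with the DNA-binding protein RBPJ it turns on target genes, first among them Hes1, Hes5, Hey1 and Hey2. These repressors hold down proneural genes and keep neural progenitors from becoming neurons, while cells that escape them express proneural factors and more Dll1 and Dll3. Hes6 is the odd one of its family: it is expressed in cells that have started to become neurons and works against Hes1, and Dll3 acts inside its own cell, where it dampens Notch signalling rather than activating it in a neighbour.

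Of the 7 genes whose promoter could be read, Hey2 and Hes5 held the RBPJ core motif, and both are shown because Hey2 gave the largest Dox difference of the 9 genes and Hes5 one of the smallest. Each is 300 bases long, from 250 before a transcript start to 50 after it, from RefSeq on GRCm38.p6, read 5′ to 3′ on the gene's strand. Hey2 lies on the minus strand at chr10:30842734-30843033 and Hes5 on the plus strand at chr4:154960673-154960972. Capitals mark the core TGGGAA, or TTCCCA where it lies on the other strand.

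Hey2: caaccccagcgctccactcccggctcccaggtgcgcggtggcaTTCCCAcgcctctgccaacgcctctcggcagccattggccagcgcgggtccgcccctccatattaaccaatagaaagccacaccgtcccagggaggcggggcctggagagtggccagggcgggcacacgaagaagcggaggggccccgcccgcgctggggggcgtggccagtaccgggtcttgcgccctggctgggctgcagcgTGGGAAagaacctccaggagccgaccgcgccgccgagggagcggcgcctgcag

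Hes5: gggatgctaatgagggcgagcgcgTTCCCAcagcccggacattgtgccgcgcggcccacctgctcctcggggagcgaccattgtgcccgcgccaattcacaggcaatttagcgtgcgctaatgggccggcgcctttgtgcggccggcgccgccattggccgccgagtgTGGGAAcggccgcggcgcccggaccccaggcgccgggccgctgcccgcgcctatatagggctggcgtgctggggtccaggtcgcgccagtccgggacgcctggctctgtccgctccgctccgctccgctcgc

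In Hey2 the core began at -207 and -3 from that start, and in Hes5 at -226 and -82. The start used for Hes5 lies inside the gene as RefSeq's gene record bounds it. Of 32851 RefSeq promoters of the same length, 25.6% held the core on either strand at least once and 3.79% at least 2 times. Hes1 and Hey1 were not examined here. The promoters of Notch1, Dll1, Dll3, Jag1 and Hes6 held no core in this window. A match is a run of letters and was not tested for binding.

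Every value below is a log2 difference from that probe set's own median over the 12 arrays, because the deposited table is centred in this way. It can therefore be compared between arrays but not between genes. From the spacing of the deposited digits, the median log2 level of all 14 probe sets was 4 or higher, and it was 8 or higher for those of Notch1 (1418634_at), Dll1, Jag1 (1434070_at), Hes5 (1423146_at), Hes6 (1436050_x_at) and Hey1. A difference between groups is the fitted log2 difference ± its standard error from limma over all probe sets, and it passed where its Benjamini-Hochberg adjusted p over all 45037 probe sets was under 0.05.

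The gene meant to be induced went against the labels. Dmrta2 (1441107_at) was at -0.14 and -0.95 in the day 7 arrays labelled +Dox of the rtTA-Dmrt5 line, against 1.91 and 1.85 in those labelled -Dox. At day 9 it was at -1.07 and -1.92 in the arrays labelled +Dox, against 1.07 and 1.16 in those labelled -Dox. The day 7 difference was -2.42 ± 0.33 (limma adjusted p = 0.00318). The day 9 difference was -2.61 ± 0.33 (adjusted p = 0.000823), so the gene fell with Dox on both days. In rtTA cells it differed by 0.10 ± 0.33 (adjusted p = 0.989). No source used here says which stretch of the transcript this probe set reads or whether the added gene holds it. The groups are therefore called by their labels throughout, and every direction between arrays labelled +Dox and -Dox, or between lines within a label, rests on them.

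**Figure D1:**
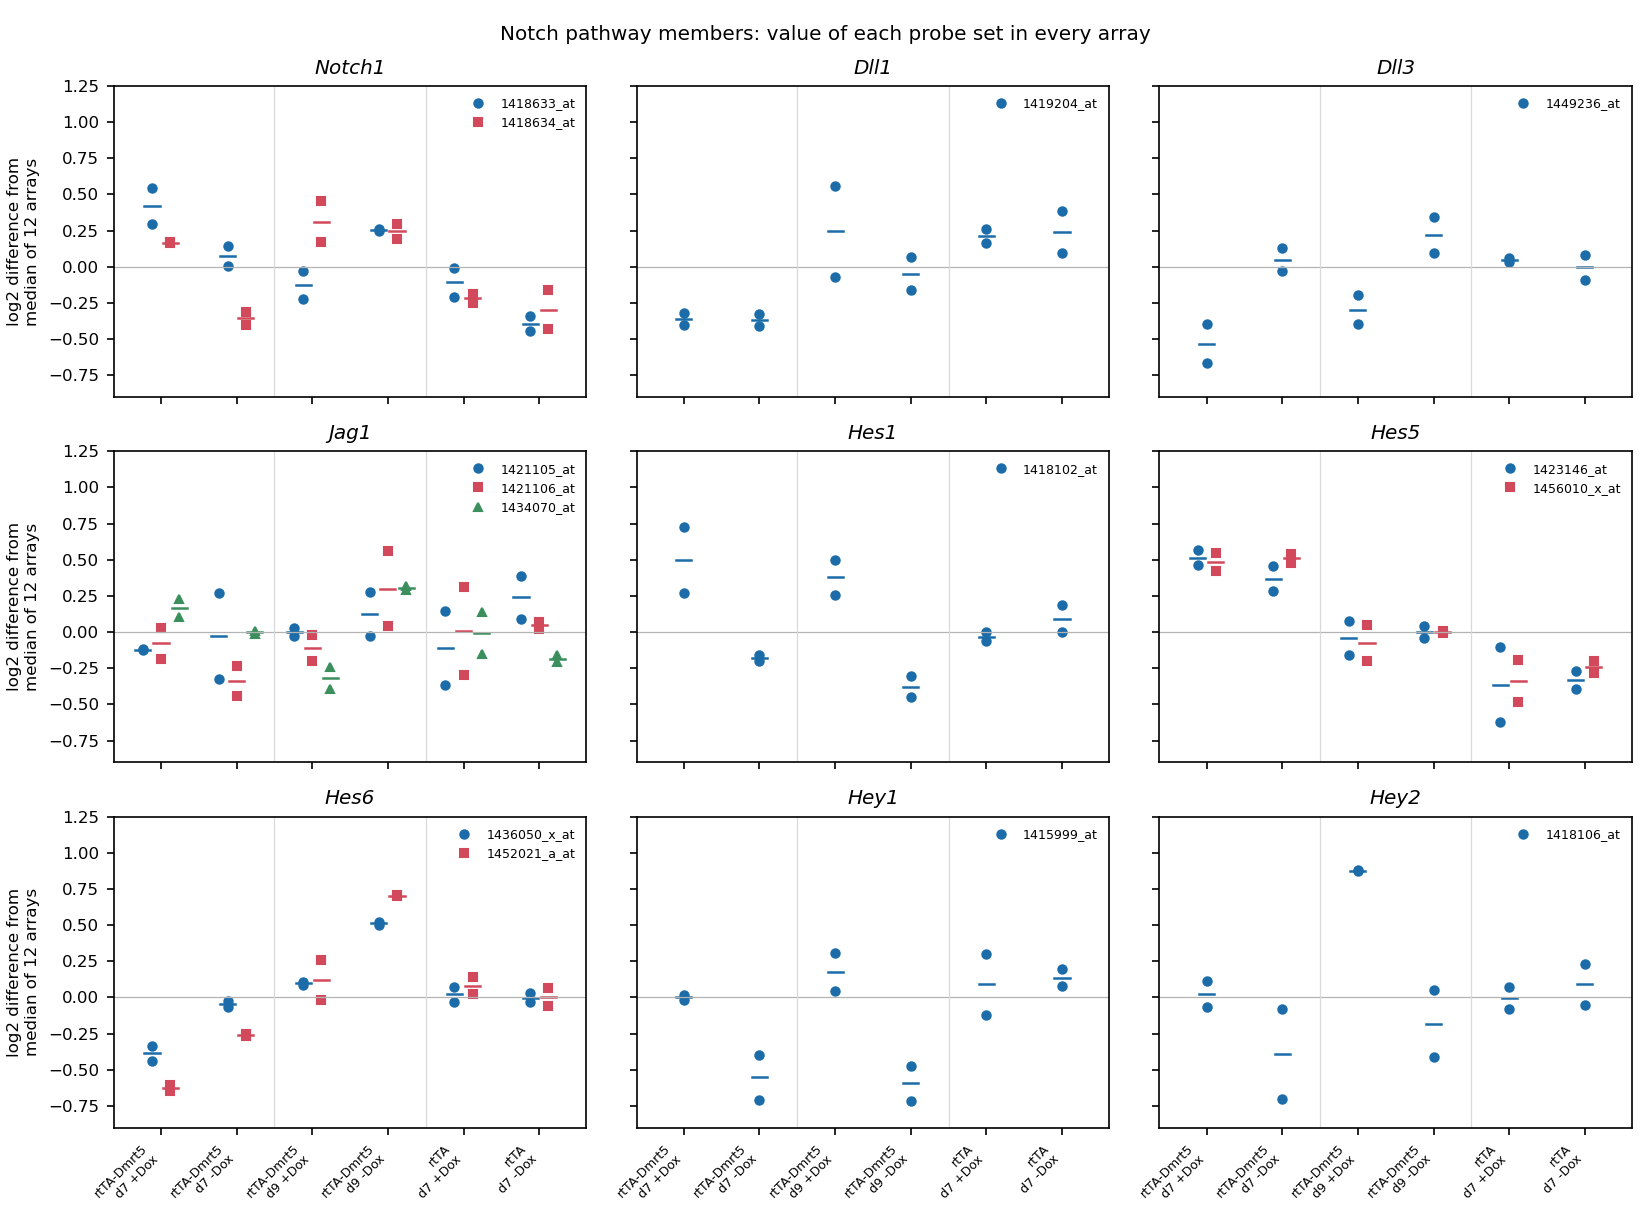
Each panel plots a gene's probe sets in all 12 arrays as the log2 difference from the probe set's median over the arrays, with a point for each array and a bar at the mean of 2. Hey2 stands highest in the day 9 arrays labelled +Dox, at 0.88 and 0.87, while the Hes6 probe sets are lowest in the day 7 arrays labelled +Dox and highest in the day 9 arrays labelled -Dox.

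At day 9 the Notch target genes Hes1, Hey1 and Hey2 were higher in the arrays labelled +Dox of the rtTA-Dmrt5 line, and the ligands Jag1 and Dll3 and the neuronal-side factor Hes6 were lower. Of the 14 probe sets, 3 rose and 4 fell, covering 6 of the 9 genes, where 10.3% of all probe sets rose and 7.95% fell (18.3% in either direction). All 14 had a level of at least 4. With only probe sets of that level tested, 8 of 14 passed, where 32.7% of those tested did. The groups' arrays did not overlap for 9 of the 14 (64.3%), against 56.5% of all probe sets. The median of the 14 differences was -0.10, that of all probe sets -0.022.

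Hey2 (1418106_at), a target that marks Notch signalling in many tissues, was at 0.88 and 0.87 in the arrays labelled +Dox, against -0.41 and 0.049 in those labelled -Dox. The arrays did not overlap, and no other array of the 12 exceeded 0.23. Its difference of 1.06 ± 0.21, or 2.08-fold, was the largest of the 14 (adjusted p = 0.00812). Hey1 (1415999_at), its close relative, was at 0.045 and 0.31 in the arrays labelled +Dox, against -0.71 and -0.48 in those labelled -Dox. It rose by 0.77 ± 0.17, or 1.71-fold (adjusted p = 0.0124). Its level with Dox was near that of the parental line at day 7, which lay between -0.12 and 0.30. The day 9 arrays labelled -Dox of the rtTA-Dmrt5 line lay below both. In arrays labelled -Dox, rtTA-Dmrt5 minus rtTA at day 7 was already -0.69 ± 0.17 (limma adjusted p = 0.0191). Day 9 minus day 7 in the rtTA-Dmrt5 line was -0.04 ± 0.17 (adjusted p = 0.929). The parental line has no day 9 array, so the lines cannot be compared at that day.

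Hes1 (1418102_at), the repressor that keeps progenitors from maturing, was at 0.25 and 0.50 in the day 9 arrays labelled +Dox, against -0.30 and -0.45 in those labelled -Dox. It rose by 0.76 ± 0.16, or 1.69-fold (adjusted p = 0.00949). The parental arrays, all of day 7, lay between both groups, from -0.063 to 0.19. Hes5, the other main Notch effector of neural progenitors, gave no such difference. Its probe set 1423146_at was at 0.078 and -0.16 in the arrays labelled +Dox, against -0.041 and 0.041 in those labelled -Dox, so that the groups overlapped. The differences of its probe sets were -0.04 ± 0.17 and -0.07 ± 0.13, with 95% intervals of -0.41 to 0.33 and -0.36 to 0.21, which exclude a rise of the size fitted for Hes1. Hes1 and Hes5 were not tested against each other.

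Hes6 fell in both of its probe sets. The first (1452021_a_at) was at 0.26 and -0.021 in the day 9 arrays labelled +Dox, against 0.70 and 0.71 in those labelled -Dox, a difference of -0.58 ± 0.12 (adjusted p = 0.00786). The second (1436050_x_at) was at 0.11 and 0.089 in the arrays labelled +Dox, against 0.50 and 0.52 in those labelled -Dox, a difference of -0.41 ± 0.10 (adjusted p = 0.0164). A name ending in x_at marks a probe set of which some probes may also match other transcripts.

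Among the ligands, Jag1 was called by its probe set at the highest level (1434070_at), which was at -0.39 and -0.24 in the day 9 arrays labelled +Dox, against 0.29 and 0.32 in those labelled -Dox. It fell by 0.62 on the log2 scale, ± 0.12, or 1.54-fold (adjusted p = 0.00678), and this call was kept whichever array was left out. The other Jag1 probe sets differed by -0.13 ± 0.22 and -0.41 ± 0.22 and did not pass, so the gene rests on 1 of 3. Dll3 (1449236_at) was at -0.19 and -0.40 in the arrays labelled +Dox, against 0.34 and 0.099 in those labelled -Dox, a difference of -0.52 ± 0.14 (adjusted p = 0.0297). Dll1 (1419204_at), the activating ligand of newborn neurons, was at -0.067 and 0.56 in the arrays labelled +Dox, against -0.16 and 0.067 in those labelled -Dox. Those groups overlapped, and its difference of 0.29 ± 0.19 (adjusted p = 0.328) became 0.60 (adjusted p = 0.0453) without the first array labelled +Dox and -0.020 (adjusted p = 0.951) without the second.

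The receptor Notch1 did not pass at day 9. Its probe set 1418633_at was at -0.22 and -0.027 in the arrays labelled +Dox, against 0.25 and 0.26 in those labelled -Dox, a difference of -0.38 ± 0.13 (adjusted p = 0.0681). Its probe set 1418634_at was at 0.17 and 0.45 in the arrays labelled +Dox, against 0.20 and 0.30 in those labelled -Dox, a difference of 0.07 ± 0.13 (adjusted p = 0.774). The probe sets of Notch1 thus gave different signs.

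Several day 9 calls rest on single arrays. Without the first array labelled -Dox the count fell to 3, where the share of all probe sets fell to 9.03%, with Hey2 at 0.83 (adjusted p = 0.066), Hey1 at 0.65 (adjusted p = 0.0887), Hes6 (1436050_x_at) at -0.43 (adjusted p = 0.0713) and Dll3 at -0.39 (adjusted p = 0.183). Without the second array labelled +Dox it fell to 4, where the share of all was 16.5%, with Hes1 at 0.63 (adjusted p = 0.0514), Hey1 at 0.64 (adjusted p = 0.0656) and Dll3 at -0.42 (adjusted p = 0.126). Hes1 also missed the threshold without the second array labelled -Dox (0.68, adjusted p = 0.0571), as did Hes6 (1436050_x_at; -0.40, adjusted p = 0.0722), which missed it as well without the first array labelled +Dox (-0.42, adjusted p = 0.0533). The sign of each of the 7 calls was the same in all of these fits. Averaging each gene's probe sets before the fit gave 6 of 9 genes (24.8% of all genes), the same 6, with Jag1 at -0.39 (adjusted p = 0.0425), and fitting the 4 arrays alone gave 4 of 14 (7.61% of all probe sets), without Dll3 (adjusted p = 0.104) and both Hes6 probe sets (adjusted p = 0.072 and 0.111). Dll3 also missed the threshold with array weights, at adjusted p = 0.062, and Notch1 (1418633_at) passed among probe sets of level at least 4, at adjusted p = 0.0382.

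The day 9 groups also differed in technical controls and in markers of other cells, whose part in these results was not tested. Hybridisation controls, labelled transcripts added in fixed amounts at hybridisation, averaged -0.789 and -0.657 in the day 9 arrays labelled +Dox, against 0.010 and 0.171 in those labelled -Dox. The arrays' polyA control probe sets averaged -0.045 and -0.031 in the arrays labelled +Dox, against 0.060 and -0.028 in those labelled -Dox. The Actb signal near the 3′ end less that near the 5′ end, a sign of RNA or label length, was 0.228 and 0.196 in the arrays labelled +Dox, against 0.005 and -0.053 in those labelled -Dox. Of 29 probe sets of 11 neuron markers, 15 fell with Dox and none rose at day 9, the largest being Snap25 (1447763_at; -1.65 ± 0.25), a protein of synaptic vesicle release, and Dcx (1448974_at; -1.54 ± 0.24), a microtubule protein of young neurons. The list averaged -0.304 and -0.205 in the arrays labelled +Dox, against 0.366 and 0.443 in those labelled -Dox. In RNA from mixed cells, fewer neurons and less RNA per neuron cannot be told apart, and the same holds for Hes6 and Dll3, which are expressed in young neurons and their precursors.

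Non-neural markers moved the other way at day 9, and their part was not tested either. Of 13 simple epithelium probe sets 9 rose and none fell, of 21 endoderm probe sets 12 rose and none fell, and of 14 probe sets of undifferentiated ES cells 8 rose and none fell. The endoderm list averaged 0.953 and 0.664 in the arrays labelled +Dox, against 0.064 and 0.100 in those labelled -Dox, and the epithelium list 0.551 and 0.441, against -0.291 and -0.444. The ES list averaged 0.349 and 0.322 in the arrays labelled +Dox, against -0.109 and -0.217 in those labelled -Dox. Mesoderm markers gave 3 risen of 8. Endothelial markers, relevant because Hey1 and Hey2 also act in vessels, gave 1 risen and 1 fallen of 10, and 8 of those 10 had a level under 4. The 24 neural progenitor probe sets gave 6 risen, of Nes and Slc1a3, with Slc1a3 (1426340_at) the largest at 1.94 ± 0.31, and 5 fallen, of Pax6, Vim and Msi1, with Pax6 (1419271_at) the largest at -2.15 ± 0.16. Because the table is centred, no marker can be said to be absent.

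**Figure D2:**
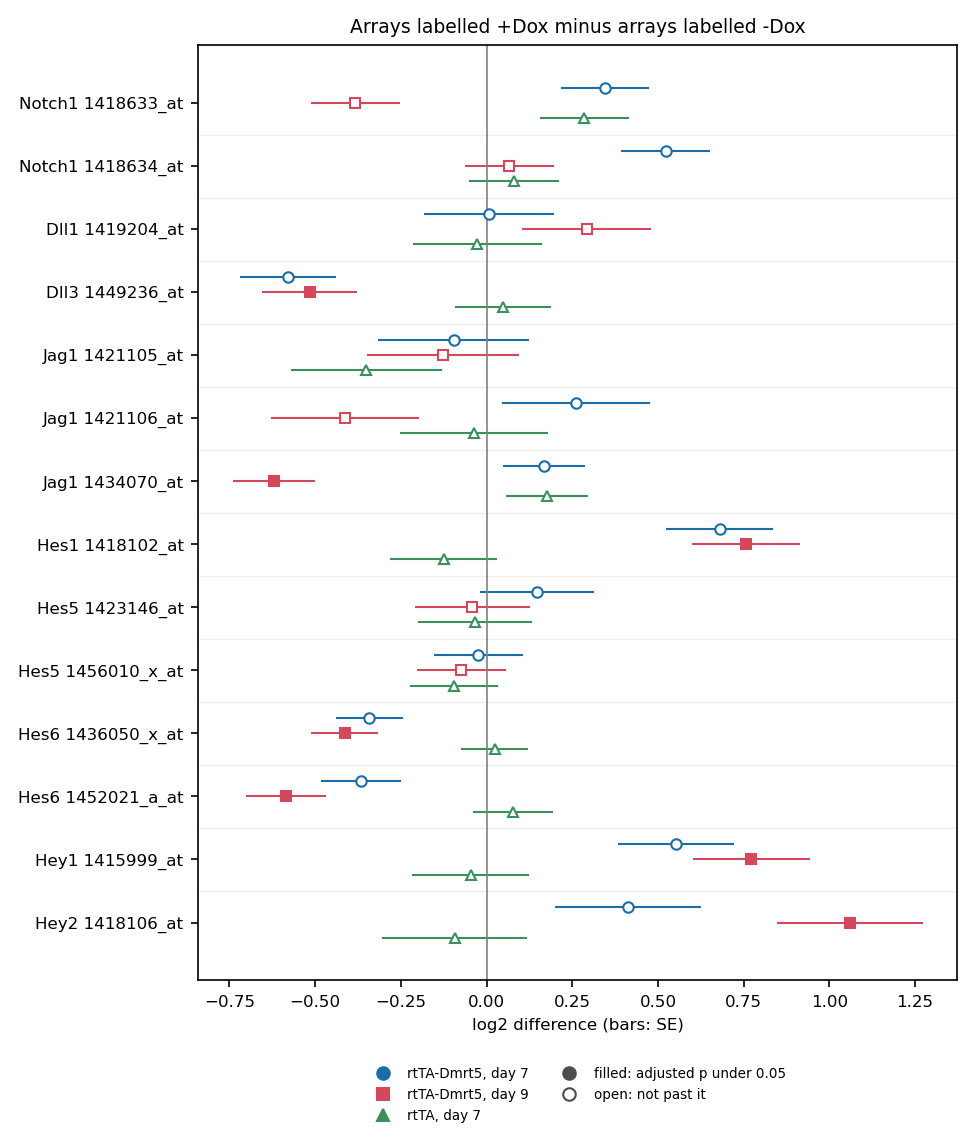
For each probe set the symbols give the log2 difference of arrays labelled +Dox minus arrays labelled -Dox, with bars of 1 standard error, for rtTA-Dmrt5 cells at day 7 and day 9 and rtTA cells at day 7. Filled symbols passed adjusted p 0.05, which 7 did at day 9 and 0 at day 7. The rtTA symbols lie between -0.35 and 0.28.

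At day 7, after the shorter exposure, no member probe set passed in rtTA-Dmrt5 cells, where 3.05% of all probe sets did (1.26% higher, 1.79% lower). At an unadjusted p under 0.05 there were 7 of 14, against 15.1% of all probe sets. The arrays did not overlap for 11 of 14 (78.6%), against 50.8% of all, and the median difference was 0.16, that of all probe sets 0.010. Hes1 came closest: it was at 0.27 and 0.73 in the arrays labelled +Dox, against -0.16 and -0.20 in those labelled -Dox, a difference of 0.68 ± 0.16 (adjusted p = 0.0503). Dll3 was at -0.40 and -0.66 in the arrays labelled +Dox, against 0.13 and -0.032 in those labelled -Dox, a difference of -0.58 ± 0.14 (adjusted p = 0.0595). In both genes the arrays separated.

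Notch1 (1418634_at) was at 0.16 and 0.17 in the day 7 arrays labelled +Dox, against -0.40 and -0.31 in those labelled -Dox, a difference of 0.52 ± 0.13 (adjusted p = 0.0669). Its other probe set gave 0.35 ± 0.13 (adjusted p = 0.234). The Hes6 probe sets gave -0.37 ± 0.12 (adjusted p = 0.154) and -0.34 ± 0.10 (adjusted p = 0.109), Hey1 0.55 ± 0.17 (adjusted p = 0.139) and Hey2 0.41 ± 0.21 (adjusted p = 0.411). The 6 probe sets of Hes5, Dll1 and Jag1 differed by -0.10 to 0.26, with adjusted p from 0.59 to 0.993.

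The day 7 count depended on the processing. With each gene's probe sets averaged before the fit, 4 of 9 genes passed, where 6.03% of all genes did: Hes1 at 0.68 (adjusted p = 0.0245) and Notch1 at 0.43 (adjusted p = 0.0356) were higher, and Dll3 at -0.58 (adjusted p = 0.0282) and Hes6 at -0.35 (adjusted p = 0.0473) lower. With array weights, or with only probe sets of level at least 4 tested, 4 of 14 probe sets passed, of the same 4 genes, where 5.92% and 6.77% of all probe sets tested did. As each array was left out, the Hes1 difference ranged from 0.45 to 0.91 and that of Notch1 (1418634_at) from 0.48 to 0.57. Neuron markers already fell at day 7, with 12 of 29 probe sets lower and 1 higher, and averaged -0.698 and -0.805 in the arrays labelled +Dox, against -0.232 and -0.240 in those labelled -Dox. ES markers rose in 4 of 14, endoderm in 3 of 21, simple epithelium in 2 of 13 and mesoderm in 1 of 8 probe sets, with none fallen, and the hybridisation controls averaged -0.337 and -0.017 in the arrays labelled +Dox, against 0.098 and 0.192 in those labelled -Dox. The part of all of these was not tested.

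The 2 days share no array. Of the 7 probe sets called at day 9, 6 differed in the same direction at day 7 (85.7%), as did 84.3% of all 8230 probe sets called at day 9, so the members' share is that of the whole table. The exception was Jag1 (1434070_at), which differed by 0.17 ± 0.12 at day 7 and -0.62 ± 0.12 at day 9. In the test of the difference between days, no member passed (0.639% of all probe sets did, 0.324% higher and 0.315% lower), and 3 of 14 had an unadjusted p under 0.05, against 14.6% of all. Jag1 (1434070_at) gave the largest difference, -0.79 ± 0.17 (adjusted p = 0.0794). It passed where only probe sets of level at least 4 were tested (adjusted p = 0.0408). Notch1 (1418633_at) followed with -0.73 ± 0.18 (adjusted p = 0.118). Hey2 gave 0.65 ± 0.30 (adjusted p = 0.361), so its larger value at day 9 was not shown to differ from that at day 7.

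In the parental rtTA cells at day 7 none of the 14 probe sets passed in limma, and 0% of all probe sets did. At an unadjusted p under 0.05 there were also 0 members, against 5.16% of all. The arrays did not overlap for 3 of 14 (21.4%), against 33.2% of all. Hes1 was at -0.0002 and -0.063 in the arrays labelled +Dox, against 0.19 and 0.0002 in those labelled -Dox, a difference of -0.13 ± 0.16. Hey1 differed by -0.05 ± 0.17, Hey2 by -0.09 ± 0.21, Dll3 by 0.05 ± 0.14 and the Hes6 probe sets by 0.08 ± 0.12 and 0.02 ± 0.10. Notch1 (1418633_at) differed by 0.28 ± 0.13 (adjusted p = 0.947), with arrays that did not overlap. That was near its 0.35 ± 0.13 in rtTA-Dmrt5 cells at day 7. Its probe set 1418634_at differed by 0.08 ± 0.13. The largest difference was in Jag1 (1421105_at), at -0.35 ± 0.22.

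Whether the lines differ in their day 7 Dox response was tested directly. No member passed (1.04% of all probe sets did, 0.3% higher and 0.739% lower), and 6 of 14 had an unadjusted p under 0.05, against 12.1% of all. Hes1 differed most, by 0.80 ± 0.22 (95% interval 0.31 to 1.30, adjusted p = 0.159), followed by Dll3 at -0.63 ± 0.20 (adjusted p = 0.222) and Hey1 at 0.60 ± 0.24 (adjusted p = 0.352). The Dox responses of the members at day 7 are therefore not shown to differ between the lines after adjustment over all probe sets.

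Between day 7 and day 9, Hes6 rose and Hes5 (1456010_x_at) fell in rtTA-Dmrt5 cells, with and without Dox. In the arrays labelled -Dox, 4 of 14 probe sets passed, 3 higher and 1 lower at day 9, where 7.65% of all probe sets passed (4.29% higher, 3.37% lower). With only probe sets of level at least 4 tested, 4 of 14 passed, where 16.5% of those tested did. The arrays did not overlap for 10 of 14 (71.4%), against 52.4% of all. Hes6 (1452021_a_at) was at 0.70 and 0.71 at day 9, against -0.27 and -0.25 at day 7, a difference of 0.96 ± 0.12, or 1.95-fold (adjusted p = 0.00119), and its second probe set rose by 0.56 ± 0.10 (adjusted p = 0.00769). Notch1 (1418634_at) was at 0.20 and 0.30 at day 9, against -0.40 and -0.31 at day 7, and rose by 0.60 ± 0.13 (adjusted p = 0.0203). Its other probe set (1418633_at) gave 0.18 ± 0.13 and did not pass (adjusted p = 0.482). Hes5 (1456010_x_at) was at -0.0085 and 0.0085 at day 9, against 0.48 and 0.54 at day 7, and fell by 0.51, ± 0.13 (adjusted p = 0.0411), while its other probe set, at -0.37 ± 0.17, did not pass (adjusted p = 0.239). Neither did the Hes5 gene mean, at -0.44 (adjusted p = 0.0591).

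In the arrays labelled +Dox, 6 of 14 passed, 3 higher and 3 lower at day 9, where 9.1% of all probe sets passed (5.18% higher, 3.92% lower). All 14 had a level of at least 4. Probe sets of that level passed more often over time without Dox (16.5% against 7.65%). Their share with Dox is not given here. The arrays did not overlap for 11 of 14 (78.6%), against 52.1% of all. Hes6 (1452021_a_at) was at 0.26 and -0.021 at day 9, against -0.61 and -0.65 at day 7, a difference of 0.75 ± 0.12 (adjusted p = 0.00435), and its second probe set rose by 0.48 ± 0.10 (adjusted p = 0.0138). Hey2 was at 0.88 and 0.87 at day 9, against 0.12 and -0.068 at day 7, and rose by 0.85 ± 0.21 (adjusted p = 0.0349). Hes5 (1456010_x_at) was at 0.050 and -0.20 at day 9, against 0.55 and 0.42 at day 7, and fell by 0.56, ± 0.13 (adjusted p = 0.0251). Notch1 (1418633_at) fell by 0.55, ± 0.13 (adjusted p = 0.0278), and Jag1 (1434070_at) by 0.48, ± 0.12 (adjusted p = 0.034). Their other probe sets did not pass, at 0.14 ± 0.13 for Notch1 and 0.12 and -0.04 for Jag1, and neither did their gene means, at -0.20 (adjusted p = 0.243) and -0.13 (adjusted p = 0.538). Hes5 (1423146_at) gave -0.56 ± 0.17 (adjusted p = 0.0684). Dll1 gave 0.61 ± 0.19 (adjusted p = 0.0787), and its difference ranged from 0.29 to 0.92 as each array was left out.

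These 2 comparisons over time share their arrays with both Dox responses. Many of their calls were lost when an array was left out, although the differences kept their sign. Leaving out each of the 12 arrays in turn, Hes6 (1452021_a_at) kept its call in 12 of 12 fits in both comparisons. Without Dox, Hes6 (1436050_x_at) kept it in 9, Notch1 (1418634_at) in 8 and Hes5 (1456010_x_at) in 4. That count fell to 1 without either day 7 array labelled -Dox or without the second day 9 array, where Notch1 (1418634_at) was at 0.55, 0.65 and 0.55 (adjusted p = 0.135, 0.0795 and 0.114) and 2.69% to 3.71% of all probe sets passed. Without the first day 9 array it was 2. Hes5 (1456010_x_at) missed the threshold even without either rtTA array labelled -Dox, which lie outside the comparison, with its difference still -0.51 (adjusted p = 0.0586). With Dox, Hes6 (1436050_x_at), Hes5 (1456010_x_at) and Notch1 (1418633_at) kept it in 9 each, Hey2 in 8 and Jag1 in 3. That count fell to 1 without either day 7 array labelled +Dox, where Hey2 was at 0.94 and 0.76 (adjusted p = 0.0995 and 0.191) and 3.74% and 2.88% of all probe sets passed, and to 3 without the first day 9 array, where Hey2 was at 0.85 (adjusted p = 0.122). With only the arrays compared, 1 of 14 passed in each, Hes6 (1452021_a_at) without Dox and Hey2 with it. Without Dox 4.41% of all probe sets then passed. Neuron markers rose over the same time, 14 of 29 probe sets without Dox and 10 of 29 with it, none falling in either. ES cell markers rose in 9 of 14 probe sets without Dox and in 11 with it, none falling, with median differences of 0.71 and 0.88. In the arrays labelled +Dox the hybridisation controls averaged -0.789 and -0.657 at day 9, against -0.337 and -0.017 at day 7. The part of these was not tested.

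**Figure D3:**
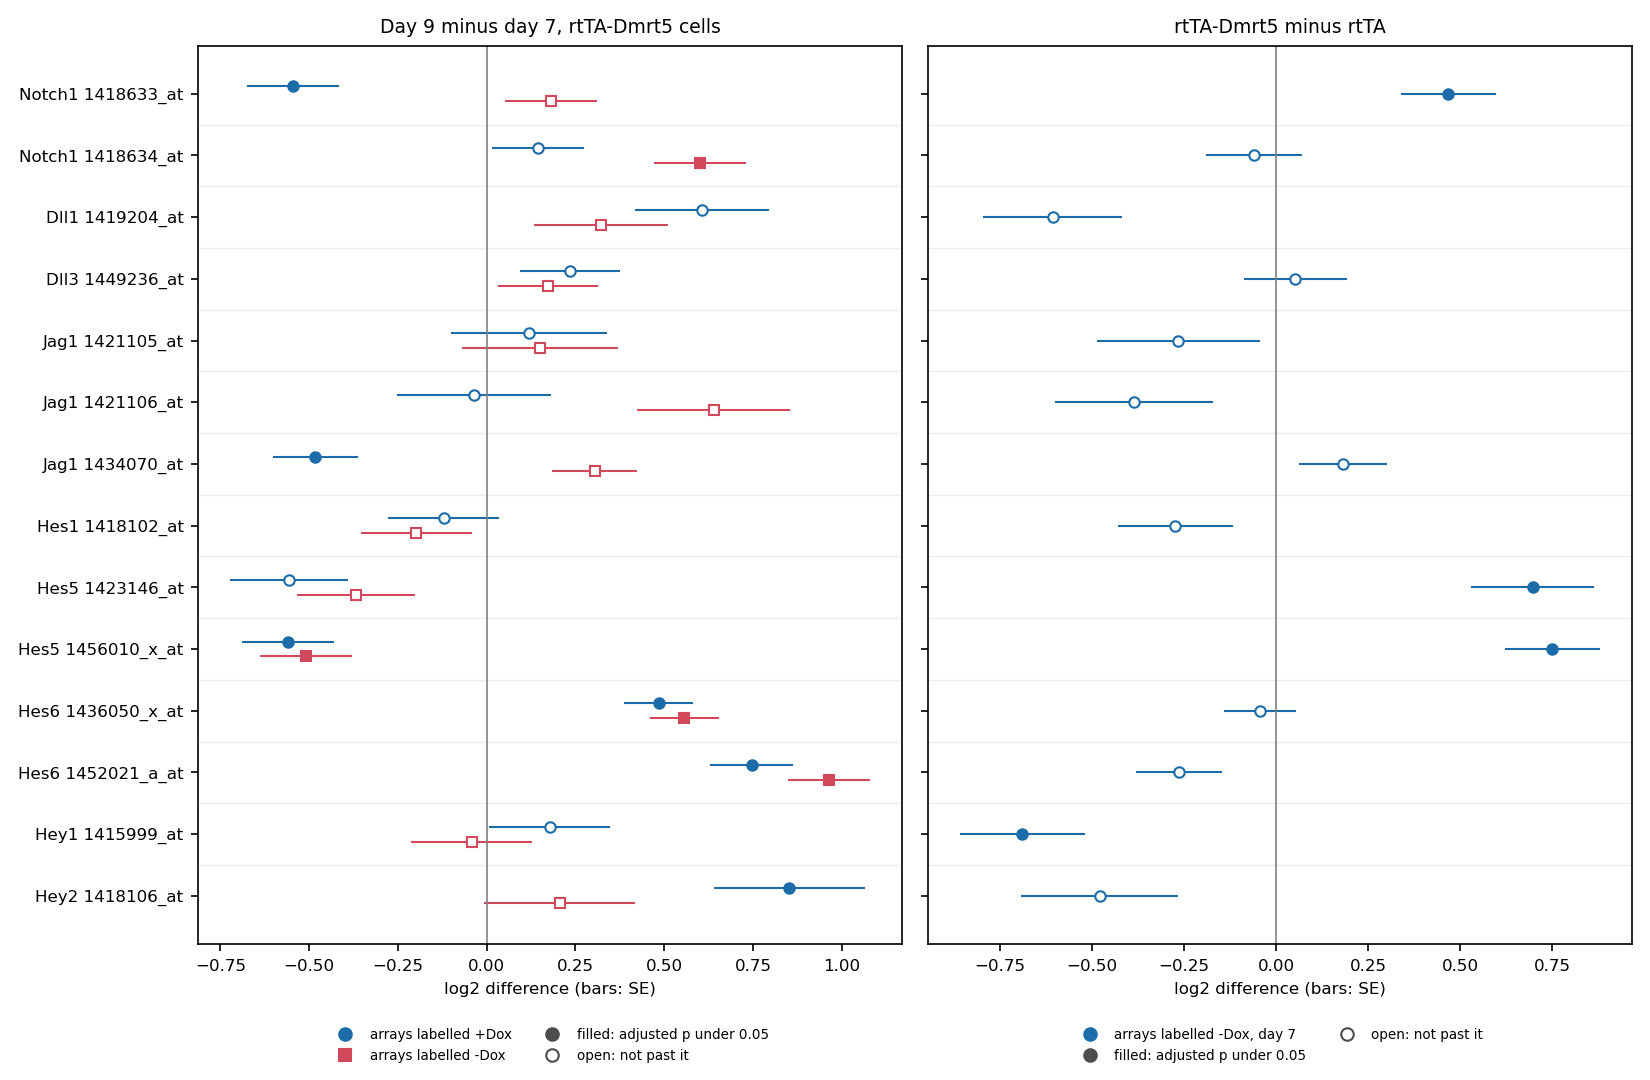
The left panel gives the log2 difference of day 9 minus day 7 in rtTA-Dmrt5 cells for arrays labelled +Dox and -Dox, the right panel that of rtTA-Dmrt5 minus rtTA at day 7 in arrays labelled -Dox, with bars of 1 standard error. Filled symbols passed adjusted p 0.05. Hes6 is higher at day 9 in both of its probe sets, and Hes5 is higher in rtTA-Dmrt5 cells by 0.70 and 0.75.

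In arrays labelled -Dox the lines also differed, and there Dmrta2 itself was higher in the inducible line, by 1.92 ± 0.33 (adjusted p = 0.00323), so whether these arrays are uninduced rests on their label. At day 7 in the arrays labelled -Dox, Hes5 was higher and Hey1 lower in rtTA-Dmrt5 cells than in rtTA cells. Of the 14 probe sets 3 were higher and 1 lower, against 18.7% of all probe sets called (8.72% higher, 9.95% lower). All 14 had a level of at least 4. Probe sets of that level passed more often in the day 9 Dox response (32.7% against 18.3%). Their share between the lines is not given here. The arrays did not overlap for 10 of 14 (71.4%), against 60% of all. Hes5 (1456010_x_at) was at 0.48 and 0.54 in rtTA-Dmrt5 cells, against -0.28 and -0.20 in rtTA cells, a difference of 0.75 ± 0.13, or 1.68-fold (adjusted p = 0.00329). Its probe set 1423146_at was at 0.46 and 0.28 in rtTA-Dmrt5 cells, against -0.39 and -0.27 in rtTA cells, a difference of 0.70 ± 0.17 (adjusted p = 0.0165). Hey1 was at -0.40 and -0.71 in rtTA-Dmrt5 cells, against 0.19 and 0.081 in rtTA cells, a difference of -0.69 ± 0.17 (adjusted p = 0.0191).

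Notch1 (1418633_at) was at 0.0066 and 0.15 in rtTA-Dmrt5 cells, against -0.45 and -0.34 in rtTA cells, a difference of 0.47 ± 0.13 (adjusted p = 0.0314), but 1418634_at gave -0.06 ± 0.13. Dll1 was at -0.33 and -0.41 in rtTA-Dmrt5 cells, against 0.38 and 0.093 in rtTA cells, a difference of -0.61 ± 0.19 that did not pass (adjusted p = 0.0503). It passed with gene means (adjusted p = 0.0314), and ranged from -0.75 to -0.46 as each array was left out. Leaving out each array in turn, Hes5 (1456010_x_at) kept its call in 12 of 12 fits, Hes5 (1423146_at) and Hey1 in 9 and Notch1 (1418633_at) in 8. Without the first rtTA array 1 probe set was called, and 9.1% of all, with Hey1 at -0.63 (adjusted p = 0.112), Notch1 (1418633_at) at 0.41 (adjusted p = 0.163) and Hes5 (1423146_at) at 0.64 (adjusted p = 0.103). Without the second rtTA array, or without either rtTA-Dmrt5 array, 2 were called, with Notch1 (1418633_at) at adjusted p of 0.0723, 0.0712 and 0.179. Hey2 gave -0.48 ± 0.21 (adjusted p = 0.157), and its difference ranged from -0.79 to -0.17 as each array was left out.

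Markers of undifferentiated ES cells were far lower in rtTA-Dmrt5 cells in this comparison, with 9 of 14 probe sets lower and 2 higher, and Pou5f1, a pluripotency factor, at -3.44 ± 0.17. The list averaged -0.934 and -0.813 in rtTA-Dmrt5 cells, against 0.425 and 0.267 in rtTA cells. Endoderm markers were higher in 8 of 21 and lower in none, neuron markers higher in 1 and lower in 10 of 29, and mesoderm markers lower in 6 of 8. The Actb 3′ less 5′ signal was 0.065 and 0.048 in rtTA-Dmrt5 cells, against -0.365 and -0.281 in rtTA cells, and that of Gapdh 0.049 and 0.042, against -0.137 and -0.078. Their part in the differences between the lines was not tested.

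The rest of the pathway was described from lists of the other ligands and receptors, the other Hes and Hey factors, cofactors and feedback genes, and the genes that process and decorate the receptor. Of 17 probe sets of the other ligands and receptors, 1 rose and 2 fell with Dox at day 7, and 1 rose and 3 fell at day 9. Of all probe sets, 1.26% rose and 1.79% fell at day 7, and 10.3% rose and 7.95% fell at day 9. Dlk1, an imprinted ligand-like protein that lacks the receptor-binding domain of the classical ligands, rose in 1449939_s_at, by 2.09 ± 0.25 at day 7 (adjusted p = 0.00157). Its day 9 rise there was 1.53 ± 0.25 (adjusted p = 0.00311). Its other probe set (1442724_at) gave 0.43 ± 0.15 at day 7 and -0.12 ± 0.15 at day 9 and did not pass. Dner, a neuronal Notch-binding protein, fell in both of its probe sets on both days, in 1423671_at by 1.79, ± 0.13, at day 7 (adjusted p = 0.000114). Its day 9 fall there was -0.84 ± 0.13 (adjusted p = 0.00255). Jag2, the closest relative of Jag1, fell by 0.95, ± 0.11, at day 9 (1426430_at; adjusted p = 0.000516), with -0.50 ± 0.16 in 1426431_at (adjusted p = 0.0505). The Dox response of 1426430_at was lower at day 9 than at day 7 by -0.84 ± 0.15 (adjusted p = 0.0478).

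Of 26 probe sets of cofactors and feedback genes, 4 fell at day 7 and 7 at day 9, and none rose. Among all probe sets 3.05% passed in either direction at day 7 and 18.3% at day 9. The largest at day 9 was Dtx4, an E3 ubiquitin ligase of the deltex family, at -1.38 ± 0.12 (1455711_at; adjusted p = 0.00012), followed by Dtx3 at -0.88 ± 0.10 (adjusted p = 0.000533). Rbpj, the DNA-binding partner of the cut receptor, fell by 0.42, ± 0.09 (adjusted p = 0.014), in 1454896_at, while its other probe sets gave -0.04 ± 0.10 and -0.04 ± 0.15, so its fall rests on 1 of 3. Nrarp, a target gene that feeds back on Notch signalling, fell in both of its probe sets, by 0.47 and 0.39 (adjusted p = 0.0223 and 0.0237), at the same time as Hes1, Hey1 and Hey2 rose. Rbpj and Nrarp were chosen for mention after their values were seen.

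Of 44 probe sets of processing and glycosylation genes, 1 rose at day 7 and 3 rose and 1 fell at day 9. Over all probe sets 3.05% passed at day 7 and 18.3% at day 9. Lfng, a glycosyltransferase that alters which ligands the receptor answers to, rose in 1420643_at, by 1.03 ± 0.12 at day 7 (adjusted p = 0.00103). Its day 9 rise there was 0.72 ± 0.12 (adjusted p = 0.00262). The day 7 response of this probe set exceeded that of rtTA cells by 1.09 ± 0.16 (adjusted p = 0.0129). Its other probe set (1449943_at) gave 0.65 ± 0.18 and 0.33 ± 0.18 and did not pass. Its relative Mfng rose by 0.62 ± 0.10 at day 9 (adjusted p = 0.00305), Ncstn, a γ-secretase subunit, by 0.47 ± 0.14 (adjusted p = 0.0378) in 1418570_at, and Mib2, a ligase that acts on ligands, fell by 0.61, ± 0.11 (adjusted p = 0.00547). The other Ncstn probe set (1444532_at) gave -0.17 ± 0.12 and did not pass. Among 9 probe sets of the other Hes and Hey factors, none passed at day 7 and 2 rose at day 9, both of Heyl, by 1.02 ± 0.17 and 0.77 ± 0.16 (adjusted p = 0.00295 and 0.00979), whose remaining probe set gave -0.16 ± 0.18. Of those 9, 6 had a level under 4.

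Proneural factors, which the Hes repressors hold down, fell in 4 of 12 probe sets at day 7 and in 7 at day 9, where 1 rose. Of all probe sets, 1.79% fell at day 7 and 7.95% at day 9. Neurog1 (1438551_at) fell by 1.62, ± 0.23, at day 9 (adjusted p = 0.00154), and Nhlh1, which acts in young neurons, fell by 1.68, ± 0.14, at day 7 (adjusted p = 0.000247). Its day 9 difference was -1.16 ± 0.14 (adjusted p = 0.000772). Without Dox, 6 of the 12 were higher in rtTA-Dmrt5 than in rtTA cells, where 8.72% of all probe sets were. Among them were Neurod1, by 2.72 ± 0.17, and Neurog1, by 2.70 ± 0.23. In rtTA cells, 0 probe sets of these 5 lists passed in the Dox response.

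**Figure D4:**
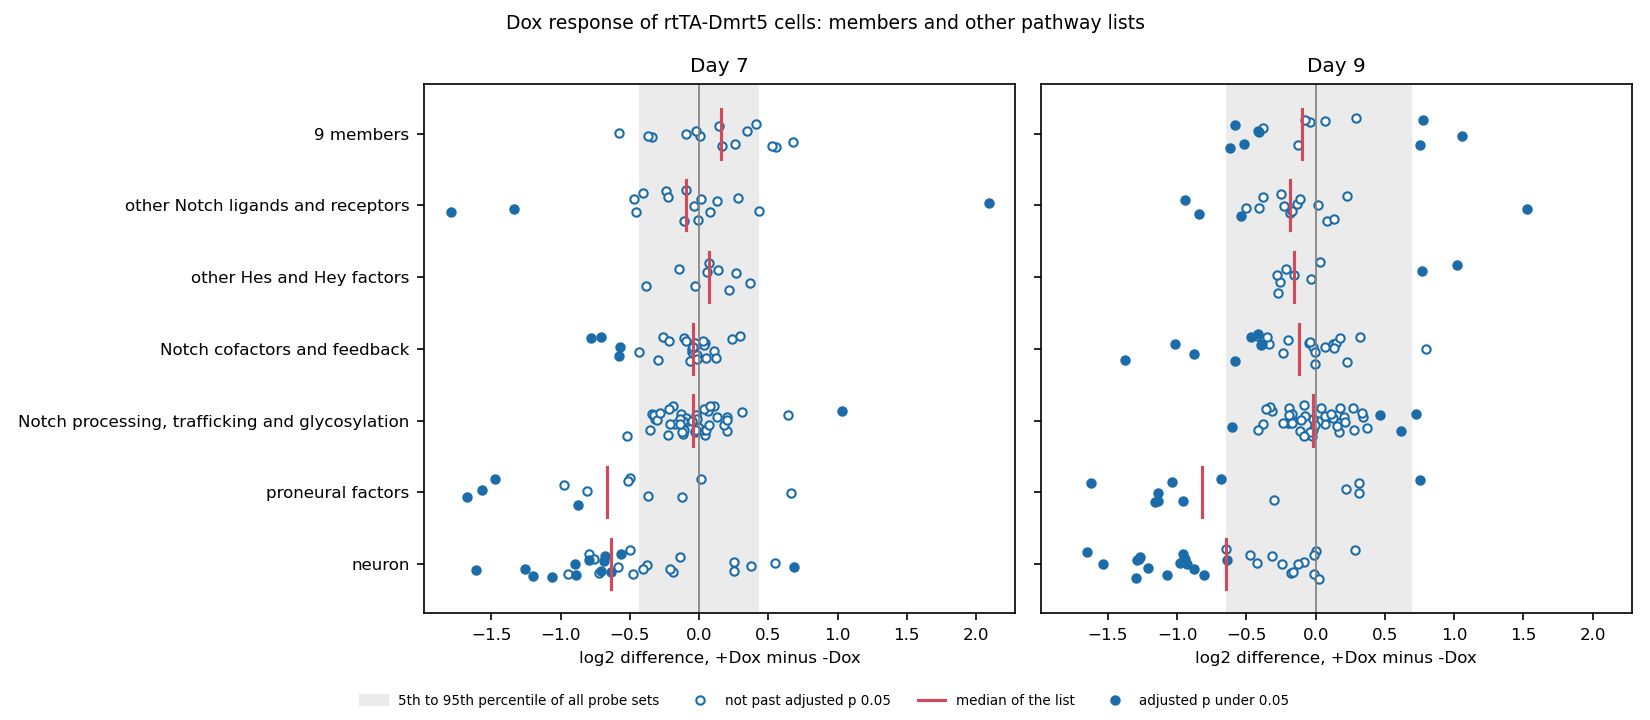
Each point is a probe set's log2 difference of arrays labelled +Dox minus arrays labelled -Dox in rtTA-Dmrt5 cells at day 7 (left) and day 9 (right), by list, with the list's median as a line and the 5th to 95th percentile of all probe sets in grey. Filled points passed adjusted p 0.05. The medians of the proneural and neuron lists lie at -0.66 and -0.64 at day 7, below those of the other lists.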

How the data were processed

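Total RNA (5 ng per sample) was amplified with a NuGEN Ovation kit, biotin-labelled and hybridised to 12 arrays, per the labels' protocols. RMA, which corrects background, equalises the arrays' distributions and summarises probes into probe sets, was the authors' method, per the submitters' processing notes, with its version not stated there. The deposited values are log2, taken as such because RMA is defined on that scale, and each of the 45101 probe sets is centred on its median over the arrays, a step no source used here mentions. They carry no level and no depth, and 2 arrays per group limit the precision. Levels were read in classes from the spacing of single-precision values: 19.9% of probe sets lay at 8 or more, 40.2% at 4 to 8, 34.8% at 2 to 4 and 5.15% under 2. A larger value is read as more RNA. Scanner files were not used here.

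From these, 64 control probe sets were left out and limma 3.58.1 (R 4.3.3) fitted a mean per group (6 residual and 3.92 prior degrees of freedom), with eBayes and Benjamini-Hochberg adjustment within each of 8 comparisons at adjusted p 0.05. The fit was tested on simulated data. Samples were grouped by the labels' line, day and treatment. Symbols came from the platform annotation (34945 probe sets with 1, 932 with several, 9160 with none). The members and lists were chosen with earlier results of these data known. Every member probe set is described. Up to 4 genes that passed are named from each other list, by size except for Rbpj and Nrarp, with the largest of a marker list. Not every probe set that passed in these lists is named, among them the 1 proneural probe set that rose at day 9. Alternatives were gene means, only the arrays compared, a robust prior, array weights, array medians at 0, the replicate block, a level filter and leaving out each array. Promoters came from RefSeq, GRCm38.p6. Plots used Python 3.11.15, pandas 2.3.3 and matplotlib 3.10.9.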

Additional observations from a re-analysis of the deposited data

How the results depend on the processing

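No difference of a member probe set that had passed changed sign under any alternative run. The count of members past the threshold in the day 7 Dox response was 0 of 14, with 3.05% of all probe sets. It became 4 of 9 genes with gene means (6.03% of all genes) and 4 with array weights (5.92% of all probe sets). With probe sets of level at least 4 it was also 4 (6.77% of those tested), and it changed in some fits that left out an array. The day 9 count (7, with 18.3% of all probe sets) became 4 with only the arrays compared (7.61%). It fell in some fits that left out an array. The difference between days (0, with 0.639% of all probe sets) became 1 with level at least 4 (2.33% of those tested). Day 9 minus day 7 without Dox (4, with 7.65% of all probe sets) became 2 with gene means (12.9% of all genes). With only the arrays compared it became 1 (4.41% of all probe sets), and it fell in some fits that left out an array. With Dox (6, with 9.1% of all probe sets) it became 3 and 1 under these settings, and changed in some fits that left out an array. The difference between the lines without Dox (4) ranged from 1 to 5. Gene means test 9 genes rather than 14 probe sets, and smaller fits have fewer degrees of freedom; beyond this the cause was not tested. Same-numbered arrays of a line and day were not paired in the main fit. Their deviations correlated at -0.06, 0.14 and 0.03, which cannot show whether they came from shared cultures. With the replicate block over all 12 arrays the counts were 0 at day 7, 7 at day 9, 0 in rtTA cells, 0 for both differences in response, 4 and 6 over time without and with Dox and 4 between lines, so the block changed no count. With the block within each line and day the counts were 0, 7 and 0. The robust prior and array medians at 0 changed no count of member calls. Over all probe sets, 1372 passed at day 7 against 775 with only the arrays compared and 2666 with array weights, and 8230 at day 9 against 3426 with only the arrays compared.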

Other observations

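Each member was to be set beside the 3 genes of most similar pattern where its widest probe set spanned at least 2 on the log2 scale, and none did: the widest, Hey2, spanned 1.58. With a span of 1, chosen after the values were seen, the genes nearest to Hes6 (1452021_a_at) over the 12 arrays were St8sia2, Fam155a and Pou6f1, with root mean square differences of 0.106, 0.108 and 0.109. Those nearest to Hey2 were Sh3bp4, Zfp128 and Rab30, at 0.187, 0.192 and 0.196. The N box CACNAG, a sequence that Hes repressors bind, stood in 42.5% of RefSeq promoters of 300 bases; among the members it was found 3 times in that of Notch1, 2 times in a promoter of Hes6 and 1 time in a promoter of Dll1.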
